A study of Mus musculus with 2 samples.

Results

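The regions described here are the open chromatin peaks of naive resting CD8 T cells in which no footprint was called. They were chosen by measured values: a peak of the stricter list of replicate 2 counted as footprint-free when it overlapped no deposited footprint of that library by 1 bp or more. There were 4753 such peaks among 38223, a share of 12.4% (Wilson 95% interval 12.1 to 12.8%), and the other 33470 held at least 1 footprint. The data are 2 libraries of DNase-seq, both from primary CD8 alpha-beta T cells that were naive and resting, taken from 2-month-old male mice of the B6CASTF1/J hybrid strain with no treatment named in the labels. They are biological replicates 2 and 3. They share a donor label and differ in biosample label, and the labels do not say whether 1 animal or 2 gave the cells. With 1 group there is no contrast between conditions, and replicate 3 served as the library that the choice of peaks did not use.

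DNase I cuts DNA mainly where it is neither wrapped in a nucleosome nor covered by protein, so sequencing the cut ends maps promoters, enhancers and insulators as peaks. Inside a peak, a bound transcription factor can shield the bases under it and leave a short stretch with fewer cuts, which is called a footprint. Naive CD8 T cells have not yet met antigen and can later become cytotoxic cells, and their open chromatin is known to be shaped by factors such as RUNX, ETS, TCF7 and LEF1, and by the insulator protein CTCF, which is known for leaving deep footprints. A peak without a called footprint is accessible DNA in which no such stretch passed the caller's threshold.

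The sequences of 4 footprint-free peaks of high signal are shown, each followed by a footprint-holding peak of the same signal decile and the closest signal value, because they show the contrast at equal signal. The sequences are the plus strand of the RefSeq GRCm38 reference (mm10), which is the C57BL/6J strain, so alleles of the other parent strain are not shown. Capitals mark the matches to 17 consensus motifs in footprint-free peaks and the deposited footprints in footprint-holding peaks.
Footprint-free peak upstream of Mxd4, chr5:34187881-34187940: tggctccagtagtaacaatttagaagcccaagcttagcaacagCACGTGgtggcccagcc
Footprint-holding peak at the Kmt2e promoter, chr5:23433821-23434060: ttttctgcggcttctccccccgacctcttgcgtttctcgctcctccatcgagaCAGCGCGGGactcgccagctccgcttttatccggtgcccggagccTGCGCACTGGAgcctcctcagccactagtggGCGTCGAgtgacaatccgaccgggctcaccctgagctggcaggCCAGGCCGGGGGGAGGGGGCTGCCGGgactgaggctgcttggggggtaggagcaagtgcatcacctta
Footprint-free peak inside Cse1l, chr2:166906221-166906340: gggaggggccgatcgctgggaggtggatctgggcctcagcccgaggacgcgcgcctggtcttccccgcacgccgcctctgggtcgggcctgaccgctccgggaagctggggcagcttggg
Footprint-holding peak nearest Gna15, chr10:81526861-81527040: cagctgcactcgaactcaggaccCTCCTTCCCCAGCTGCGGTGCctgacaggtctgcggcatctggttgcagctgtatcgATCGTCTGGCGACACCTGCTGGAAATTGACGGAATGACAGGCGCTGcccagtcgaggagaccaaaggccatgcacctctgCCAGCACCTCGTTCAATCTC
Footprint-free peak upstream of Vapa, chr17:65613841-65614080: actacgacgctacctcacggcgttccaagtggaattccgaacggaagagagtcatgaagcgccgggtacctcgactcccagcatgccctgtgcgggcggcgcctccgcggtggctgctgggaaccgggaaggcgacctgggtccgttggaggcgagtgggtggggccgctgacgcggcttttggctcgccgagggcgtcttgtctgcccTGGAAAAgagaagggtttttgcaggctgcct
Footprint-holding peak nearest Tcf7, chr11:52297461-52297640: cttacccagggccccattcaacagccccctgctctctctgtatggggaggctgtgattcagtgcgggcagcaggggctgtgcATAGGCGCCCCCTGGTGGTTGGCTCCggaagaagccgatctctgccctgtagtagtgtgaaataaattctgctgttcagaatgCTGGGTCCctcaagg
Footprint-free peak between genes nearest Zfp239, chr6:117879841-117880080: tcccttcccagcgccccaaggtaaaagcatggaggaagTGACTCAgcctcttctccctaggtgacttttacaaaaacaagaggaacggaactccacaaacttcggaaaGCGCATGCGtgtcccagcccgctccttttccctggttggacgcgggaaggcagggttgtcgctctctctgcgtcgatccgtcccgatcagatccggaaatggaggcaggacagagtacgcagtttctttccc
Footprint-holding peak at the Acot2 promoter, chr12:83987621-83987840: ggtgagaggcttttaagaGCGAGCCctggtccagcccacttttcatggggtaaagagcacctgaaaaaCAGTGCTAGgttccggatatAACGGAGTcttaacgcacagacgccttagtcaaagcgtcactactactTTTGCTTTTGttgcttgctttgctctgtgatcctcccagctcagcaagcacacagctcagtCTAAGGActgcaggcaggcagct

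Signal values below are the authors' value per peak. The 60 bp peak upstream of Mxd4, whose product dimerises with Max, reached 7.39 in replicate 2 and 4.88 in the overlapping peak of replicate 3, and its capitals are 1 E-box. Its partner at the promoter of Kmt2e, a chromatin protein gene, reached 7.40 in replicate 2 and 7.05 in replicate 3. In it, 4 footprints covered 53 of 240 bases, and there was no motif match. The 120 bp peak inside Cse1l, which encodes a nuclear export receptor for importin alpha, had a signal of 4.74 in replicate 2, no peak in replicate 3 and no motif match. This peak had its nearest footprint 4 bp away and lay 60 bp from a peak of signal 9.34 with 7 footprints. Its partner nearest Gna15 reached 4.74 in replicate 2 and 5.06 in replicate 3, and 3 footprints covered 87 of 180 bases. The only motif matched in this partner was E-protein. The 240 bp peak upstream of Vapa, an endoplasmic reticulum membrane protein gene, reached 3.71 in replicate 2 and 4.25 in replicate 3 and held 1 NFAT match. Its partner nearest Tcf7, a transcription factor gene of naive T cells, reached 3.71 in replicate 2 and 6.01 in replicate 3. This partner had 2 footprints over 34 bases, a CTCF match and an AP-1 match. The peak nearest Zfp239 reached 3.33 in replicate 2 and 2.85 in replicate 3, and held 1 NRF1 and 1 AP-1 match with no footprint in either library. Its partner at the Acot2 promoter reached 3.33 in replicate 2 and 2.76 in replicate 3, and its 5 footprints covered 41 of 220 bases with no match to any of the motifs.

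Facts of the whole series set the scale of these comparisons. The stricter lists held 38223 peaks in replicate 2 and 17061 in replicate 3, with 146244 and 29967 footprints. All 257 distinct signal values below 2 in replicate 2, and all 33 in replicate 3, were whole multiples, within 0.05 of a step, of steps of 0.00746 and 0.0452, a ratio of 6.05, so the scale differs between libraries and signal is compared only within one. Within 10 kb of 8 naive CD8 T cell marker genes lay 55 peaks of replicate 2, against 11 at 4 B cell markers, 2 at 4 myeloid markers and 4 at Cd4. Of the B cell peaks, 7 lay at Cd79a, and no peak lay at Ms4a1, Csf1r or Lyz2.

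The values that chose the members, or that come from the same library's cuts, are given as a description. Footprint-free peaks were weaker, with a median signal of 0.657 (10th to 90th percentile 0.418 to 1.22), against 1.45 (0.604 to 5.63) in footprint-holding peaks. The share of peaks without a footprint was 41.3% in the lowest signal decile of replicate 2 and fell with each decile, through 24.6, 20.1, 15.8, 11.6, 6.88, 2.98 and 0.942%, to 4 peaks in decile 9 and 2 in decile 10. Footprint-holding peaks carried a median of 3 footprints and up to 18. Over all signals the footprint-free peaks were also narrower, with a median width of 155 bp against 200 bp, but this order turned within deciles. In decile 1 the medians were 90 bp for footprint-free and 119 bp for footprint-holding peaks, and in decile 2 they were 136 and 152 bp. In decile 3 they were 201 and 180 bp, and in deciles 5 and 6 they were 280 and 200 bp. At middle signal, therefore, the footprint-free peaks were the wider ones.

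**Figure D1:**
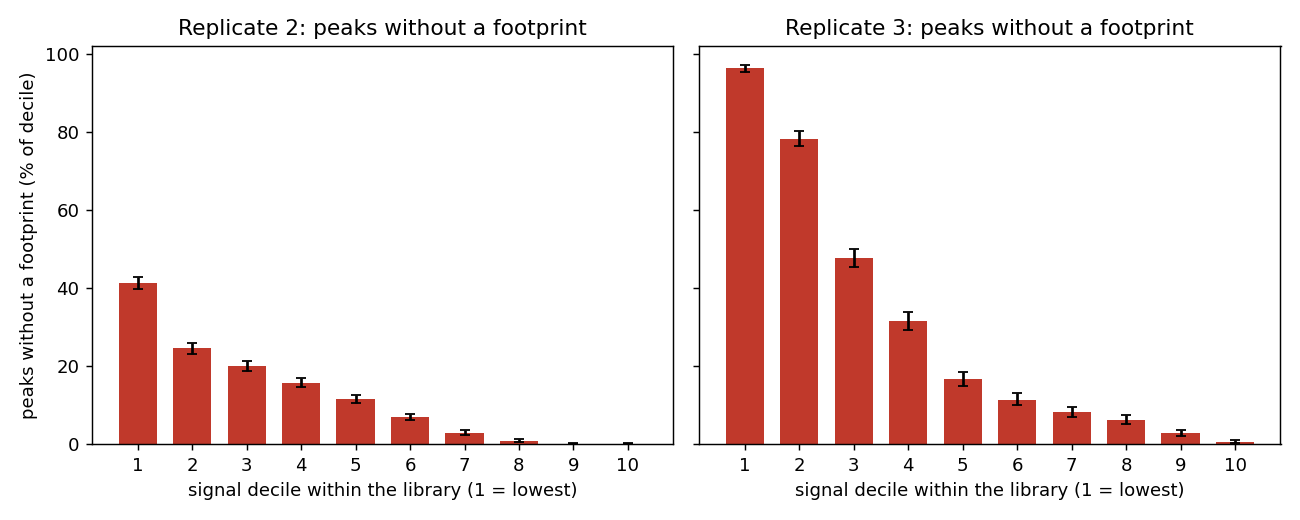
Share of peaks without a footprint in each signal decile of replicate 2 (left) and replicate 3 (right), in percent of the peaks in that decile, with Wilson 95% intervals as error bars. The share is 41.3% in the lowest decile of replicate 2 and 96.5% in that of replicate 3, and below 1% in the highest decile of both.

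The rule has an edge, and many members lay close to it. The nearest footprint outside the peak was 257 bp away at the median, 742 members (15.6%) had one within 50 bp, and 3741 (78.7%) had one within 500 bp. A footprint lay 0 to 5 bp from the edge of 160 members, with a median width of 74.5 bp, and 540 members (11.4%) had none within 1000 bp. On the other side of the rule, 49 peaks held only 1 or 2 bp of a footprint, with a median width of 75 bp, and 5620 held exactly 1 footprint. The 2 strongest members were of the edge kind: each was 60 bp wide. One lay near the start of Ndufb5, which encodes a subunit of respiratory complex I, at chr3:32736861-32736920 and overlapped Mrpl47; it reached 7.70 in replicate 2 and 7 in replicate 3, where it held 1 footprint, and its nearest replicate 2 footprint was 5 bp away. The Mxd4 peak had its nearest footprint 4 bp away, as did the 120 bp peak inside Cse1l. A peak in an intron of Bach2, which encodes a repressor that restrains effector differentiation, at chr4:32250864-32251120, directly adjoined a footprint; its signal was 1.78 in replicate 2 and 2.71 in replicate 3. Members that likewise adjoined a footprint lay in the promoter windows of Nup210, Coro1a and Rnf6 and far upstream of Tnfaip3. Just outside the rule, peaks at Pim1, Susd6, Mocs1 and Vps37b overlapped a footprint by 1 bp each.

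To compare features at equal signal, shares in footprint-holding peaks were weighted to the signal deciles of the footprint-free peaks; these are called matched peaks below. The interval of each difference is a 95% interval from binomial counting error. Peaks are not replicates of a condition, so no p-value is given, and the same rule applied to replicate 3 shows how each difference varied between libraries.

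Footprint-free peaks lay mainly at promoters, the windows of 1000 bp on either side of a protein-coding start site. Of the members, 3037 (63.9%) were promoter peaks, against 22.0% of matched footprint-holding peaks, a difference of 41.9 percentage points (40.4 to 43.5). Of all peaks of replicate 2, 42.8% were promoter peaks. In the longer list of replicate 2, which adds weaker peaks, the shares were 41.0 and 22.7%, a difference of 18.3 points (17.2 to 19.5). Introns held 16.6% of footprint-free and 35.0% of matched peaks, the space between genes held 16.3 and 37.6%, and exons held 3.20 and 5.43%. By the same rule 5122 of the 17061 peaks of replicate 3 (30.0%) had no footprint, so the mean share was 21.2 ± 12.4% (SD, n = 2). There, 51.7% of footprint-free peaks were promoter peaks, against 32.0% of matched peaks, a difference of 19.7 points (15.7 to 23.7). Few matched peaks stood behind that value, since 96.5% of the lowest decile of replicate 3 had no footprint. Without matching, the direction differed between the libraries. In replicate 2, 63.9% of footprint-free and 39.8% of footprint-holding peaks were promoter peaks, a difference of 24.1 points (22.6 to 25.6). In replicate 3 the shares were 51.7 and 65.1%, a difference of -13.4 points (-15.0 to -11.7). Read by placement, 64.4% of promoter peaks in the lowest decile of replicate 2 held no footprint, against 34.2% of exon, 28.7% of intron and 28.6% of intergenic peaks in that decile. In decile 5 these shares were 28.1, 8.26, 4.55 and 3.96%.

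**Figure D2:**
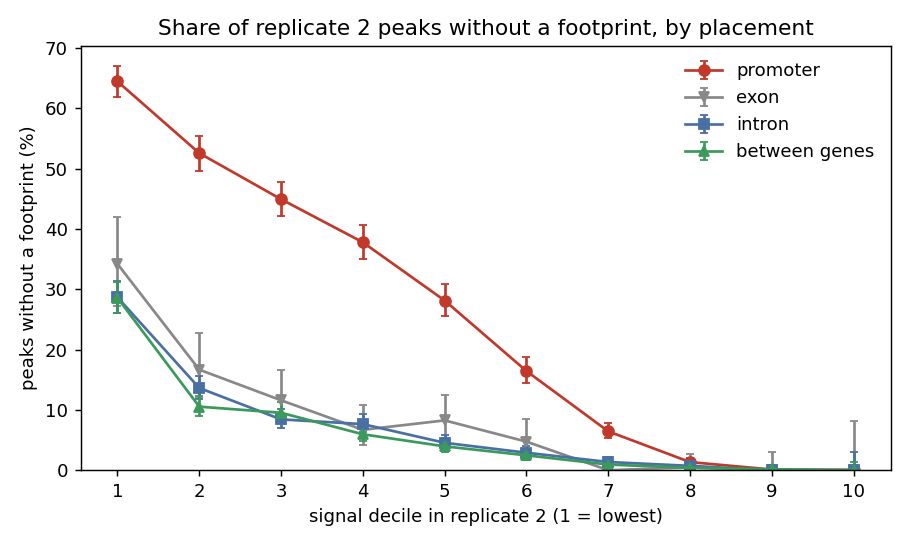
Share of replicate 2 peaks without a footprint (percent) by signal decile, with 1 line for promoter, exon, intron and intergenic peaks and Wilson 95% intervals as error bars. The promoter line lies above the other 3 in deciles 1 to 8, at 64.4% in decile 1 and 28.1% in decile 5.

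Within promoters, the footprint-free peaks of replicate 2 sat mostly beside the start site rather than on it. Only 281 of the 3037 promoter members (9.25%) covered a start site, against 35.7% of matched promoter peaks, a difference of -26.5 points (-28.4 to -24.6). Of the members, 2135 (70.3%) lay wholly downstream of the nearest start site, on the transcribed side, against 41.9% of matched peaks, a difference of 28.4 points (26 to 30.8). Upstream peaks made up 20.4% of members and 22.4% of matched peaks, an interval that covers 0. The centre of a promoter member was at +359 bp from the start at the median, and that of a footprint-holding promoter peak at -31 bp. The fullest window of 100 bp was +400 to +500 bp for members, with 13.3% of them, against 5.20% of matched peaks. In replicate 3 the median centres were at +32 bp and -42 bp, and the fullest window of footprint-free promoter peaks was -100 to 0 bp, with 23.3% of them, against 6.53% at +400 to +500 bp. There the footprint-free promoter peaks covered a start site in 33.0% of cases, against 53.8% of matched peaks, and lay downstream in 44.4%, against 30.2%.

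**Figure D3:**
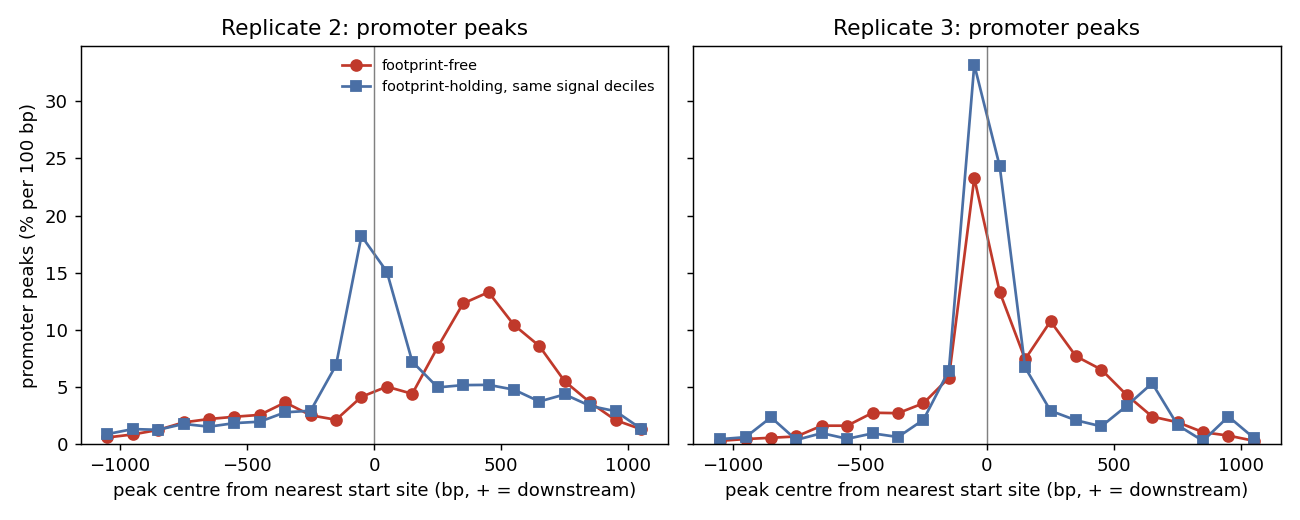
Position of promoter peak centres relative to the nearest protein-coding start site (bp, positive values downstream), in percent of promoter peaks per 100 bp, for footprint-free peaks and for footprint-holding peaks of the same signal deciles in replicate 2 (left) and replicate 3 (right). In replicate 2 the footprint-free line is highest at +400 to +500 bp, with 13.3%, where the footprint-holding line is at 5.20%; in replicate 3 a second rise of the footprint-free line lies downstream.

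In replicate 2, footprint-free peaks often stood next to a stronger peak. Another peak of the same list lay within 200 bp of 1718 members (36.1%), against 10.5% of matched peaks, a difference of 25.6 points (24.2 to 27.1), and within 500 bp of 71.6%, against 19.3%. Of the 3401 members with a neighbour within 500 bp, the neighbour had the higher signal in 2957 (86.9%) and held a footprint in 2626 (77.2%), with a median signal of 0.701 for the member and 1.98 for the neighbour. Of the 8921 footprint-holding peaks with a neighbour that close, the neighbour was the stronger in 3221 (36.1%) and held a footprint in 6270 (70.3%); these shares are not matched on signal, and members are weaker peaks. The neighbour of a member covered a start site in 1459 cases (42.9%). Of the 2135 downstream promoter members, 1844 (86.4%) had another peak within 500 bp. The deposited lists hold peaks that overlap each other, and 222 members (4.67%) overlapped another peak, against 2.72% of footprint-holding peaks, with 76 members lying wholly inside one. In replicate 3 a neighbour lay within 200 bp of 23.7% of footprint-free and 6.74% of matched peaks, and within 500 bp of 37.5 and 11.7%. Distal footprint-free peaks, those outside promoter windows, had one within 500 bp in 46.7% of cases in replicate 2 and 9.70% in replicate 3. Within 200 bp, their shares were 28.9%, against 5.87% of matched distal peaks, in replicate 2 and 6.35%, against 1.43%, in replicate 3. With all peaks of replicate 2 that have a neighbour within 200 bp left out, promoter placement differed by 41.8 points (39.9 to 43.7). Leaving out peaks with a neighbour within 500 bp was not run, and the part of neighbours in promoter placement was not tested. These neighbour values were examined after the promoter positions had been seen.

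The named members show the arrangement. The Vapa peak lay 120 bp from a peak with a signal of 9.95 and 6 footprints. The peak near the start of Cnot1, the scaffold of the CCR4-NOT deadenylase, at chr8:95807941-95808180, reached 3.39 in replicate 2 and 2.17 in replicate 3 and lay 240 bp from a peak of signal 8.24 with 6 footprints. The peak in Ifrd1 at chr12:40222661-40222920 reached 2.98 in replicate 2 and 3.97 in replicate 3, with its centre 398 bp downstream of the start, and its neighbour had a signal of 12.0 and 7 footprints. The peaks of Isca1, an iron-sulfur cluster assembly gene, and Dyrk1b, a kinase gene, had signals of 3.16 and 3.14 in replicate 2 and 3.52 and 3.16 in replicate 3, beside neighbours of 11.7 and 9.03. The peak upstream of Ptma, which encodes prothymosin alpha, had a signal of 2.95 and was not in the stricter list of replicate 3. Of the 10 strongest members, 9 were promoter peaks and 8 lay within 260 bp of a peak that held 3 to 7 footprints. Further strong promoter members in both libraries lay at Pnpla8 (2.81 in replicate 2 and 3.75 in replicate 3), Clpb (2.78 and 2.80) and Atad1 (2.58 and 1.63).

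Distal members, those outside promoter windows, numbered 1716. The strongest ones also found in replicate 3, after the peak nearest Zfp239, were in an intron of Zfp957 (2.75 in replicate 2 and 2.57 in replicate 3) and upstream of Lef1, which encodes a partner of TCF7 in naive T cells (2.31 and 2.71). The Lef1 peak, at chr3:130947381-130947580 with its centre at -162990 bp from the start of Lef1, was isolated, with its nearest footprint 1227 bp away and its nearest peak 10100 bp away, and held 1 footprint in replicate 3. Others lay at Hcfc1, Pim3, Cic, Eef2k, Elk4, Edem1 and Bach2, with signals of 1.78 to 2.20 in replicate 2 and 1.36 to 3.03 in replicate 3. Of these 7, those at Hcfc1 and Edem1 overlapped a stronger peak with 12 and 4 footprints.

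Presence in replicate 3 was slightly less frequent for footprint-free peaks of equal signal. Of the members, 451 (9.49%) overlapped a peak of the stricter list of replicate 3, against 11.4% of matched peaks, a difference of -1.95 points (-2.79 to -1.10). Of all replicate 2 peaks, 42.5% did so. Without matching, the share of footprint-holding peaks was 47.2%, a difference of -37.7 points. By decile, the shares were 2.34% of footprint-free and 5.06% of footprint-holding peaks in decile 2, 14.3 and 14.0% in decile 4, 25.6 and 25.4% in decile 5, 40.4 and 59.4% in decile 7 and 50 and 80.3% in decile 8. In deciles 1 and 3 to 6 the Wilson intervals of the 2 kinds overlapped. With width matched as well, the difference was -0.967 points (-1.84 to -0.0934), and from the longer list of replicate 2 it was -0.677 points (-1.08 to -0.276). With promoter class matched as well as decile, it was -3.07 points (-4.00 to -2.13). Distal members were found less often, at 3.26% against 8.90% of matched distal peaks, a difference of -5.64 points (-6.57 to -4.71), and promoter members at 13.0% against 14.6%, a difference of -1.62 points (-2.98 to -0.254). In the longer list of replicate 3 the shares were 22.9% for members and 29.1% for matched peaks, and a position listed there at a rate of false discovery up to 0.05 was found in 29.6 and 32.5%. Read from replicate 3, 87.1% of its footprint-free peaks overlapped a stricter peak of replicate 2, against 97% of matched peaks, a difference of -9.92 points (-12.4 to -7.45). A peak missing from the stricter list of replicate 3 was not called in that list and is not shown to be closed there.

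**Figure D4:**
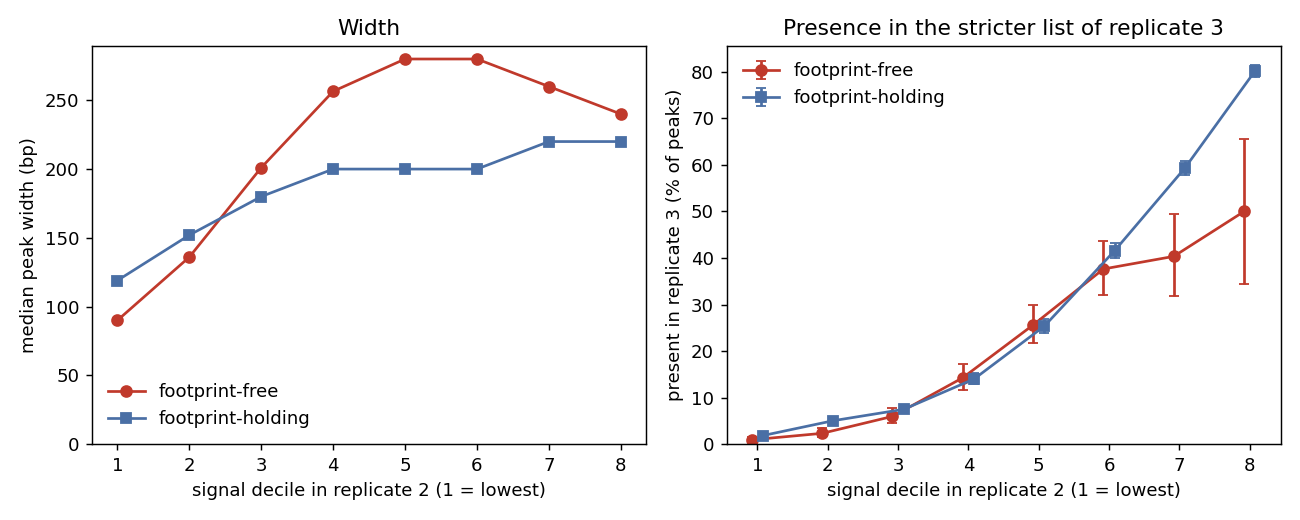
Median peak width in bp (left) and share of peaks present in the stricter list of replicate 3 in percent (right) by signal decile of replicate 2, for footprint-free and footprint-holding peaks; error bars are Wilson 95% intervals, and deciles 9 and 10 are left out because they hold 4 and 2 footprint-free peaks. Footprint-free peaks are wider from decile 3 on, and their presence is below that of footprint-holding peaks in deciles 1 to 3 and 6 to 8, at 50% against 80.3% in decile 8.

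Where a member was shared, it tended to lack a footprint in replicate 3 too. Of the 451 shared members, 33 (7.32%) held a replicate 3 footprint, against 35.4% of matched shared peaks, a difference of -28.1 points (-31.0 to -25.2), and 418 (92.7%, 89.9 to 94.7) were without a footprint in both libraries. Of all shared peaks, 74.0% held a replicate 3 footprint. The shares were 6.06% of 99 footprint-free and 44.8% of 1480 footprint-holding peaks in decile 6, and 19.6% of 46 and 65.3% of 2201 in decile 7. Shared meant an overlap of 1 bp or more, and replicate 3 footprints were counted only within the replicate 2 peak. Stricter peaks of replicate 3 covered 50% or more of the bases in 220 of all members (4.63%), against 8.27% of matched peaks. That difference was -3.64 points (-4.28 to -3.01), and its part in the footprint share was not tested. The shared members were also slightly weaker in replicate 3 within deciles 2 to 8 of replicate 2 signal, with a median of 1.76 against 1.85 in decile 6 and 2.08 against 2.26 in decile 7. In decile 1 the order turned, at 1.13 against 1.08. Their replicate 2 medians were lower as well, at 1.425 against 1.447 in decile 6 and 1.847 against 1.902 in decile 7. The part of these signal differences in the footprint share was not tested. Read in the other direction, 4461 footprint-free peaks of replicate 3 overlapped a replicate 2 peak. Of these, 3835 (86.0%) held a replicate 2 footprint and 626 (14.0%, 13.0 to 15.1) did not. Among matched footprint-holding peaks of replicate 3, 96.4% held one, a difference of -10.4 points (-12.9 to -7.91). Most footprint-free peaks of replicate 3 thus held a replicate 2 footprint, but less often than matched peaks.

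Repeat content was low in both kinds of peak. At least 50% of the bases were soft-masked as repeats in 163 members (3.43%), against 6.55% of matched peaks and 3.81% of all peaks of replicate 2, a difference of -3.12 points (-3.82 to -2.43). Peaks matched on promoter class as well as decile had 3.92%, and the interval of that difference, -1.15 to 0.163 points, covers 0. At least 50% of the 31-base words of a peak occurred more than once in the reference in 97 members (2.04%), against 2.63% of matched peaks and 1.55% of all peaks, a difference of -0.592 points (-1.12 to -0.0638) that changed direction with the peak list and the matching. On chromosome X, 210 of 1051 peaks were footprint-free, and on Y 14 of 38, but at equal signal X held 4.42% of members and 4.40% of matched peaks (interval of the difference -0.706 to 0.734 points). CpG-rich sequence, defined by an observed over expected CpG ratio of at least 0.6 and at least 50% GC, was found in 44.8% of members and 19.4% of matched peaks. Within promoters the shares were 60.8 and 60.1%, a difference whose interval covers 0.

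Of the 17 motifs searched on both strands, CTCF differed most. A CTCF match was found in 67 members (1.41%), against 11.2% of matched peaks and 9.82% of all peaks, a difference of -9.80 points (-10.4 to -9.16). With matching on promoter class too, the difference was -4.36 points (-4.88 to -3.84), and in distal peaks the shares were 3.03 and 13.7%. In replicate 3 they were 11.5% of footprint-free and 17.4% of matched peaks, and -1.42 points (-4.55 to 1.71) with promoter class matched. RUNX (TGTGGTT), the family of the CD8 lineage factor Runx3, matched in 4.42% of members and 7.60% of matched peaks, but with promoter class matched the interval of the difference, -1.46 to 0.0225 points, covers 0. KLF/SP (GGGGCGGGG), a GC box of promoters, matched in 4.57% of members and 3.48% of matched peaks, but in 4.52% of peaks matched on width too, with an interval that covers 0. Within promoters the order turned, with 6.19% of members and 11.4% of matched peaks. TCF7/LEF1 (CTTTGAT) matched in 1.96 and 2.83%, ETS (ACCGGAAGT) in 0.105 and 0.275%, with an interval that covers 0 (-0.342 to 0.00156 points), and E-protein (CAGCTG) in 10.9 and 12.6%. In all, 9 motifs were less frequent in members, 1 was more frequent and 7 had intervals that covered 0. With promoter class matched as well, the intervals of RUNX, TCF7/LEF1 (-0.563 to 0.456 points), AP-1, NFAT and GATA, 5 of those 9, covered 0, and NRF1, ETS, CREB, YY1 and KLF/SP were less frequent. In replicate 3 at equal signal, CTCF was less frequent, KLF/SP was more frequent, and the other 15 intervals covered 0. Without matching, both of these differences in replicate 3 had the opposite direction. CTCF matched in 11.5% of footprint-free and 10.2% of footprint-holding peaks, a difference of 1.26 points (0.230 to 2.29). KLF/SP matched in 7.03 and 16.8%, a difference of -9.81 points (-10.8 to -8.84). A match describes letters only, matches of different motifs may overlap, and wider peaks have more room for one.

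**Figure D5:**
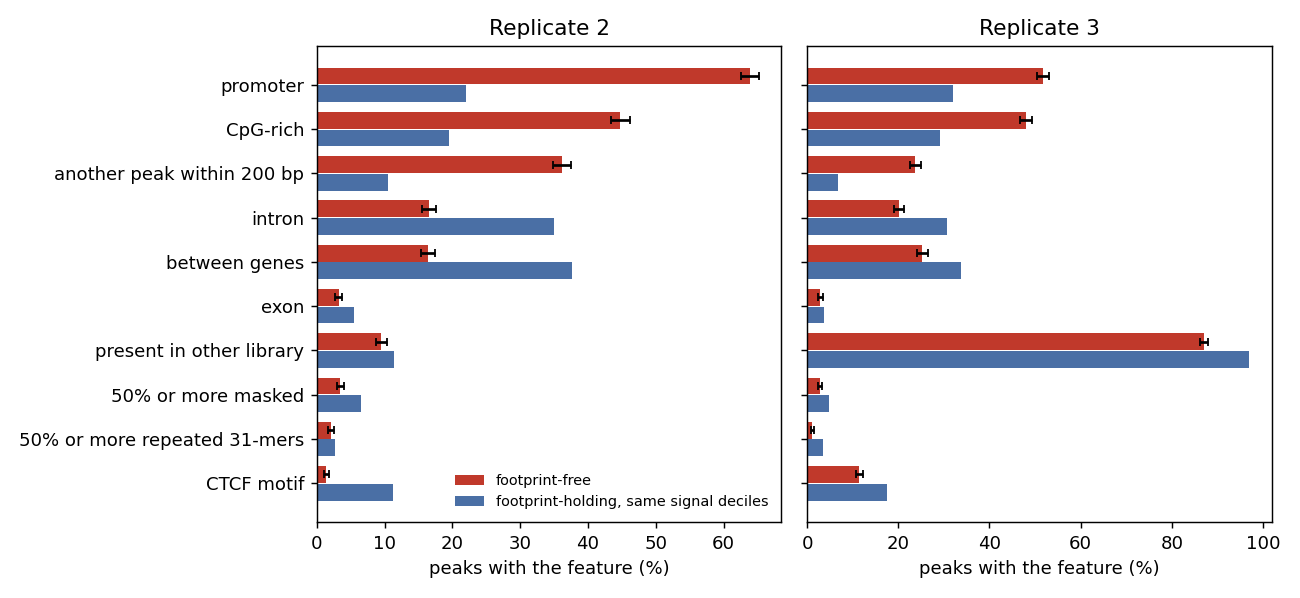
Percent of peaks with each feature in footprint-free peaks (upper bars, with Wilson 95% intervals) and in footprint-holding peaks weighted to the same signal deciles (lower bars), for replicate 2 (left) and replicate 3 (right). In replicate 2, 63.9% of footprint-free peaks lie at promoters, against 22.0% of matched peaks, and 1.41% hold a CTCF match, against 11.2%.

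Members lay at loci of genes that mark naive T cells, with a median member signal of 0.989 against 1.44 for all peaks at the 15 naive and CD8 genes. Within 10 kb of these genes lay 28 members among 157 peaks (17.8%, 12.6 to 24.6), against 8.81% of other peaks of the same deciles. They came from 12 of the 15 genes, 8 of them were promoter peaks and 2 were found in replicate 3. The shares of other peaks given here were matched on decile and not on placement. At 15 T cell receptor and signalling genes there were 6 among 81 (7.41%), against 9.03% of other peaks of the same deciles, and at 14 effector genes 3 among 46 (6.52%), against 8.53%. At 12 B cell and myeloid genes there were 2 among 22 (9.09%), against 11.8%, and at 15 housekeeping genes 4 among 50 (8%), against 4.45%. Ccr7, the lymph node homing receptor gene, had 5 members among 14 peaks, with a highest member signal of 1.85 against 6.54 for its strongest peak. Bach2 had 7 among 30 (highest 2.06, against 8.07), and Klf2, which encodes a factor that maintains T cell quiescence and trafficking, had 3 among 7 (1.37, against 14.7). Members above the median signal of all peaks also lay at Cd3e (1.31), Ptprc, which encodes CD45 (1.32), Foxp1 (1.30) and B2m, the light chain of MHC class I (1.99). Cd8a, Cd8b1 and Cd4 had 3, 1 and 4 peaks and no footprint-free one. Peaks of 1 locus share their position, so these counts describe few genes.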

How the data were processed

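DNase-seq was read from 2 libraries of 1 group. The authors' deposited peak lists give each peak a signal, whose scaling the labels do not state; the authors' deposited lists of positions give q-values (false discovery rates) up to 0.05, and the deposited footprint lists hold 1 constant, so only their intervals were used. Each list was made from 1 library's own mm10 alignments, per the submitters' deposited notes; no source used here names the aligner or the callers. The depth in reads is unknown. The stricter list is the shorter one. Overlap meant 1 bp or more.

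Members, lists, motifs and alternatives were chosen with earlier results of these data known. Matched shares weight footprint-holding peaks to the members' 10 signal deciles; intervals cover counting error only. Genes were protein-coding genes of GENCODE M21 basic; repeats were lower-case bases of RefSeq GRCm38.p6; 31-base words were counted on both strands over chromosomes, unplaced and mitochondrial sequence. Motifs not spelled out in the results were GCGCATGCG for NRF1, CCAATCA for NFY, TGACGTCA for CREB, CACGTG for E-box, AAGATGGCG for YY1, TGANTCA for AP-1, GAAANNGAA for ISRE, TGGAAAA for NFAT, AGATAA for the GATA family, GTAAACA for FOXO and CAGGTA for ZEB. Regions named were the 10 strongest members, the 10 strongest promoter and distal members found in replicate 3, and the 5 members or footprint-holding peaks nearest the rule's edge on each side; loci named hold a member above the median signal, and marker loci are named beside them; some regions and loci under this rule are not reported here. The sides of start sites and neighbouring peaks were added after seeing the data. The interval was tested on simulated peaks drawn independently of each other. The deposited peaks often lie close together or overlap, and few matched peaks stand behind the replicate 3 intervals. The simulation did not cover these features. Computation used numba 0.67.0, scipy 1.17.1, pandas 2.3.3, numpy 2.4.6, and Python 3.11.15, with matplotlib 3.10.9 for figures.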

Additional observations from a re-analysis of the deposited data

How the results depend on the processing

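The share of replicate 2 peaks without a footprint was 12.4% and moved to 18.8% in the longer peak list, 13.3% when a footprint had to lie wholly inside the peak, 10.5% when peaks were extended by 50 bp on each side, 17.8% with footprints of 8 bp or more and 30.0% without replicate 2. Promoter placement, presence in replicate 3 and the footprint share in replicate 3 kept their direction, with intervals clear of 0, under all 13, 15 and 12 alternatives counted here. With neither replicate 2 nor matching, promoter placement turned to -13.4 points. Promoter placement ranged from 18.3 points in the longer list to 46.5 points with extended peaks. Presence moved to -0.967 points with width matched too, -3.07 points with promoter class matched, -3.69 points with footprints of 8 bp or more and -37.7 points with no matching. In subsets of replicate 2 peaks outside these counts, some intervals of presence covered 0. With a neighbour within 200 bp, presence differed by -0.988 points (-2.91 to 0.938), and without one by -2.97 points (-3.92 to -2.02). Presence at any position listed in replicate 3 differed by -0.189 points (-2.30 to 1.92) in promoter peaks. In distal peaks it differed by -12.0 points (-13.9 to -10.2).

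The repeat difference of -3.12 points had an interval covering 0 in the longer list (-0.625), without replicate 2 (-1.85), with no matching (-0.431) and with promoter class matched (-0.495). The repeated 31-base word difference of -0.592 points was 0.168 in the longer list, 0.559 with no matching and 0.215 for peaks with 90% or more repeated words. Its interval covered 0 with peaks extended (-0.350), without replicate 2 (-2.37), with width matched (-0.513), with promoter class matched (-0.217) and for peaks with no neighbour within 200 bp (-0.504). Without replicate 2, 1 motif in place of 9 was less frequent, and among motifs whose interval was clear of 0 the sign turned for RUNX (0.246) and E-protein (0.685); with promoter class matched it turned for KLF/SP (-3.13). FOXO, E-box and YY1, whose intervals covered 0, also changed sign without replicate 2, FOXO and E-box with promoter class matched and E-box with width matched. The cause was not tested.

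No paired analysis was possible because there is 1 group of 2 libraries. In replicate 3, 96.5% of the lowest decile had no footprint, so few matched peaks stand behind its intervals there. Matching on promoter class and leaving out peaks with neighbours were chosen after seeing the data.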
